A study of Mus musculus with 18 samples.

Results

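The p53 target genes described here are Cdkn1a, Mdm2, Ccng1, Phlda3, Bbc3, Bax, Eda2r and Trp53inp1. They were chosen by name, as genes that p53 activates, and are 8 of the 32286 features counted in each library. p53 is a transcription factor that is held at a low level by the ubiquitin ligase Mdm2 and accumulates when DNA is damaged or when growth is not properly controlled. It then binds response elements near its target genes, whose products stop the cell cycle, repair DNA or start apoptosis, and one of the targets, Mdm2, closes a negative feedback loop. The crypts of the small intestine are known for a strong p53 response to radiation, and several of the targets are also transcribed without p53, Cdkn1a among them, which is switched on when epithelial cells leave the cell cycle.

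The study deleted Setdb1, which methylates histone H3 at lysine 9 and keeps chromatin silent, in the Lgr5+ stem cells of the mouse ileum. Of its 18 samples, the 8 single-cell RNA libraries were used, and the total RNA, H3K9me3 and scATAC-seq samples were not analysed here. The Lgr5+ experiment had 2 libraries of Lgr5-GFP-CreERT2 mice (Lgr5+ WT) and 2 of Lgr5-GFP-CreERT2/Setdb1lox/lox mice (Lgr5+ Setdb1-KO). The lineage-traced experiment had 2 libraries of each of the same genotypes with the nTnG reporter, in which Cre switches a cell and its progeny from nuclear tdTomato to nuclear GFP. All mice had a C57Bl6 background, per the labels, and were 60 to 65 days old, and all, controls included, carried the Lgr5-GFP-CreERT2 allele and were injected intraperitoneally with tamoxifen (1 dose of 70 mg/kg, dissolved in corn oil) 5 days before GFP+ cells were sorted from ileal crypts. Cre was driven by the Lgr5 locus, and this knock-in allele is known to be silent in a part of the crypts. Sorted cells were frozen before the libraries were made, and the source used here describes the replicates as biologically independent without saying how many animals each holds.

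Barcodes with 1000 (Lgr5+) or 500 (lineage-traced) to 18000 unique molecular identifiers (UMIs) and under 5% mitochondrial UMIs were kept. These were 25218 in the Lgr5+ libraries (2894 to 11423 per library, median depth 4686 to 9336 UMIs) and 26797 in the lineage-traced libraries (3882 to 10239 per library, median depth 961 to 2085 UMIs). Levels are given as CPM, UMIs of a gene scaled to the UMI total of the cells concerned, and with 3′ counting the levels of different genes are not compared. Setdb1 stood at 11.3 and 9.93 CPM in Lgr5+ WT and at 5.32 and 6.21 CPM in Lgr5+ Setdb1-KO (log2 fold change -0.85, SE 0.14, edgeR adjusted p = 0.0470). In the lineage-traced experiment Setdb1 stood at 6.11 and 4.21 CPM in WT and at 10.4 and 7.85 CPM in the libraries labelled Setdb1-KO. These CPM are scaled to library totals, by which the median log2 fold change of all genes was 0.536. In the edgeR fit, scaled by the trimmed mean of M values, the fold of Setdb1 was 0.24 (SE 0.23, edgeR adjusted p = 0.603). The deletion removes exon 3, which 3′ counting does not measure, so these values do not check it. The targeted gene therefore gives no check of the labels of the lineage-traced libraries, which are given below as labelled, and every direction drawn from them rests on those labels. Enterocyte-marked cells were 17.2% and 15.1% of the lineage-traced WT cells and 1.83% and 2.14% of those labelled Setdb1-KO. The second lineage-traced WT library stood apart by its unmarked barcodes. Of its kept barcodes, 42.3% were unmarked with a Paneth-marker share of at least 0.75 times that of its empty droplets. In the other 3 lineage-traced libraries such barcodes were 1.95% to 10.6%. Only Paneth markers were compared for this count, so it does not tell empty droplets from cells. Paneth-marker UMIs made up 33.8% and 31.3% of all kept UMIs in the lineage-traced WT libraries and 7.25% and 4.92% in those labelled Setdb1-KO, and their part in the results over all cells was not tested.

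Barcodes were put into classes by UMIs of marker genes, none of which is a p53 target described here. In both experiments, the genes that led each marked class by fold held 4 to 10 of its own markers among the top 10 and none of another class. The classes were made with these markers, so this follows in part from the assignment and does not check it. Stem-marked cells (Lgr5, Olfm4 and others) numbered 6990 in the Lgr5+ and 2210 in the lineage-traced libraries, dividing cells 5004 and 2307, enterocyte-marked cells 1664 and 2247, goblet-marked cells 4008 and 4449, and enteroendocrine-marked cells 916 and 245. Tuft-marked cells numbered 611 and 301, Paneth-marked cells 301 and 1517, and barcodes with too few UMIs of any list, called unmarked, 5117 and 13080. Summed T-cell markers stood at 75.5 to 126 CPM in Lgr5+ WT and at 14.3 to 18.4 CPM in Lgr5+ Setdb1-KO, and B- and plasma-cell markers reached 114 CPM in the second Lgr5+ WT library and at most 5.71 CPM in the other 7 libraries. Macrophage markers were at 2.80 CPM or less, and fibroblast and endothelial markers at 0.262 CPM or less, in every library.

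p53 acts through response elements, and the letters of the best matches to their consensus near the members were read first. The window of 5000 bases on each side of the first annotated start of 21774 RefSeq genes (GRCm38.p6, the assembly of mm10, the build in the submitters' processing notes) was searched for the p53 consensus, 2 decamers without a spacer, with the core C and G of both decamers required. The consensus is its own reverse complement, so 1 scan covers both strands. The best sites of 6 of the genes are printed because they match best, and the 4 capitals mark the core bases. Letters run 5′ to 3′ on the strand of each gene, which is the reverse strand for Ccng1, Bax, Eda2r and Mdm2.
Cdkn1a, chr17:29090928-29090947: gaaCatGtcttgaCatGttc
Ccng1, chr11:40754936-40754955: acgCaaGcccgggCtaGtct
Ccng1, chr11:40755462-40755481: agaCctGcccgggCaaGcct
Bax, chr7:45466574-45466593: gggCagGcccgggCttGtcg
Eda2r, chrX:97376534-97376553: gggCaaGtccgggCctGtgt
Mdm2, chr10:117710105-117710124: ggtCaaGttgggaCacGtcc
Bbc3, chr7:16309486-16309505: ctgCaaGccccgaCttGtcc
The Cdkn1a site matched the consensus at 19 of 20 letters and lies 41 bases upstream of the first annotated start, outside any gene. Ccng1 had 2 sites at 19 of 20, one 363 bases downstream of the start within the gene and one 163 bases upstream of it, and 1.69% of all scanned genes had a match of at least 19. Bax and Eda2r matched at 18 of 20 letters (319 and 690 bases downstream, within the genes), which 9.75% of genes reached. Mdm2 and Bbc3 matched at 17 of 20 (643 and 1098 bases downstream, within the genes), which 39.1% of genes reached. The best matches for Phlda3 and Trp53inp1 were 16 and 15 of 20, found in 78.6% and 96.4% of genes, so these letters do not set them apart. A match is a description of the sequence, and no binding of p53 was measured in these libraries.

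Cdkn1a encodes p21, the inhibitor of cyclin-dependent kinases that carries out p53-dependent arrest. In the Lgr5+ experiment, its level differed widely between the classes of cells. In enteroendocrine-marked cells, which make hormones, it stood at 528 and 432 CPM in WT and at 744 and 508 CPM in Setdb1-KO. In stem-marked cells it stood at 5.11 and 4.73 CPM in WT and at 2.69 and 6.30 CPM in Setdb1-KO. The lowest enteroendocrine library was thus far above the highest stem library. Over the 4 libraries the order was enteroendocrine (553 ± 134 CPM, SD, n = 4), tuft (101 ± 10.4), goblet (57.2 ± 5.59), enterocyte (54.2 ± 9.71), unmarked (36.6 ± 11.9), Paneth (27.3 ± 13), dividing (9.55 ± 3.02) and stem (4.71 ± 1.5). Goblet and enterocyte, enterocyte and unmarked, unmarked and Paneth, Paneth and dividing, and dividing and stem overlapped between libraries, whereas enteroendocrine and tuft, and tuft and goblet, did not.

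**Figure D1:**
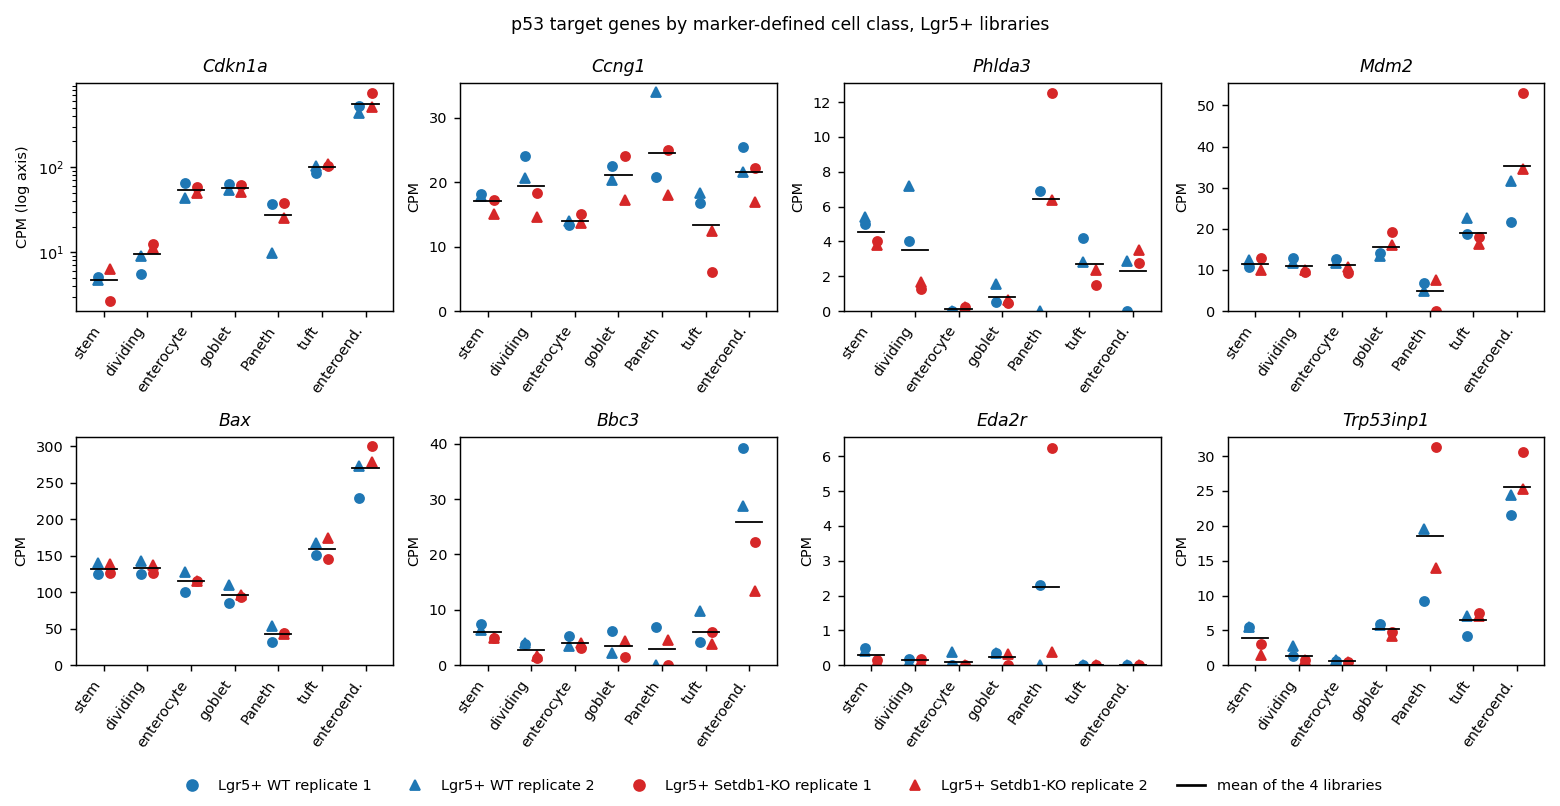
Levels of the 8 p53 target genes in CPM (y axis, a log axis for Cdkn1a and linear for the others) by cell class (x axis) in the 2 Lgr5+ WT (blue) and 2 Lgr5+ Setdb1-KO (red) libraries, with a black line at the mean of the 4. The enteroendocrine points of Cdkn1a lie between 432 and 744 CPM and its stem points between 2.69 and 6.30 CPM.

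Tested with the library as a block, Cdkn1a was higher than in stem-marked cells in all 5 classes fitted. The log2 fold change was 6.22 (SE 0.16, edgeR adjusted p = 1.73e-26) in enteroendocrine-marked cells, 4.11 (SE 0.21) in tuft-marked, 3.66 (SE 0.16) in goblet-marked and 3.61 (SE 0.18) in enterocyte-marked cells. In dividing cells it was 0.90 (SE 0.20, edgeR adjusted p = 0.000514), and in the WT libraries alone 0.55 (edgeR adjusted p = 0.0651). The classes differ from stem-marked cells in much of the transcriptome, so these calls stand against a high background. edgeR called 64.8% of the 12386 genes tested in enteroendocrine-marked, 43.3% in tuft-marked, 65.4% in goblet-marked, 64% in enterocyte-marked and 36.5% in dividing cells. Scaling to library totals instead of by the trimmed mean of M values (TMM) moved the median of all genes in enteroendocrine-marked cells from 0.0357 to 0.599, and the genes called higher and lower from 4194 and 3830 to 6546 and 1894. The corresponding medians went from -0.149 to -0.343 in enterocyte-marked, from -0.0248 to 0.224 in tuft-marked and from 0.0103 to -0.127 in goblet-marked cells, where the higher and lower genes went from 3607 and 4323 to 2941 and 5331, from 2719 and 2638 to 3839 and 1631, and from 4192 and 3905 to 3512 and 4696.

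Cells with a Cdkn1a UMI were also counted at equal depth. Thinned to 1000 UMIs per cell, 40 of 105 (38.1%) and 48 of 166 (28.9%) enteroendocrine-marked cells of Lgr5+ WT held one, and 78 of 191 (40.8%) and 153 of 454 (33.7%) of Lgr5+ Setdb1-KO. No class here is known to lack the gene, and stem-marked cells served as the low comparator. Of these, 0.552% and 0.469% held a UMI in WT, and 0 of 779, which allows a share of up to 0.385%, and 0.380% in Setdb1-KO. The enteroendocrine-marked cells were the shallower of the 2 classes, with median depths of 2392 to 5157 UMIs against 3797.5 to 8258 in stem-marked cells. Without thinning the shares were 49.4% to 63.4% in enteroendocrine-marked and 1.80% to 2.25% in stem-marked cells. Tuft-marked cells had 5.00% to 15.0% and goblet-marked cells 5.15% to 6.34% after thinning, so these classes overlapped in this measure. In droplets without a cell, Cdkn1a stood at 17.8 to 27.4 CPM, above its level in stem-marked and dividing cells. All intervals, floors and shares cover counting error only.

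The few Cdkn1a UMIs of stem-marked cells were not spread evenly. The 10 cells with the most UMIs held 68.6% and 34.5% of the UMIs of the class in Lgr5+ WT and 61.1% and 45.7% in Lgr5+ Setdb1-KO. With so few UMIs, 10 cells hold a large share even when the UMIs are spread evenly. These shares therefore do not show whether the UMIs were concentrated. In enteroendocrine-marked cells the highest single cell, in the first Setdb1-KO library, held 34 UMIs. Within this class, cells with a UMI of Neurog3, the factor that starts the endocrine fate, had 260 and 564 CPM of Cdkn1a in WT and 579 and 422 CPM in Setdb1-KO, from 18, 35, 66 and 102 cells. Cells led by serotonin and granin genes (Chga, Chgb, Tph1, Tac1) had 292, 271, 566 and 442 CPM in the same order. Those led by peptide hormone genes had 768, 519, 998 and 636 CPM, the higher of the 2 last subsets in every library. Each of these subsets stood above the tuft-marked class, the next in order.

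Cdkn1a was highest in enteroendocrine-marked cells, and this small class supplied much of its signal. Enteroendocrine-marked cells were 2.20% and 2.71% of Lgr5+ WT cells and 6.60% and 3.97% of Lgr5+ Setdb1-KO cells. They held 22.2% and 24.9% of the Cdkn1a UMIs in WT and 44.5% and 29.5% in Setdb1-KO. Among lineage-traced cells they were 0.712% and 0.644% of WT cells and 0.851% and 1.2% of cells labelled Setdb1-KO, and held 3.92%, 3.21%, 5.30% and 15.4% of the Cdkn1a UMIs.

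**Figure D2:**
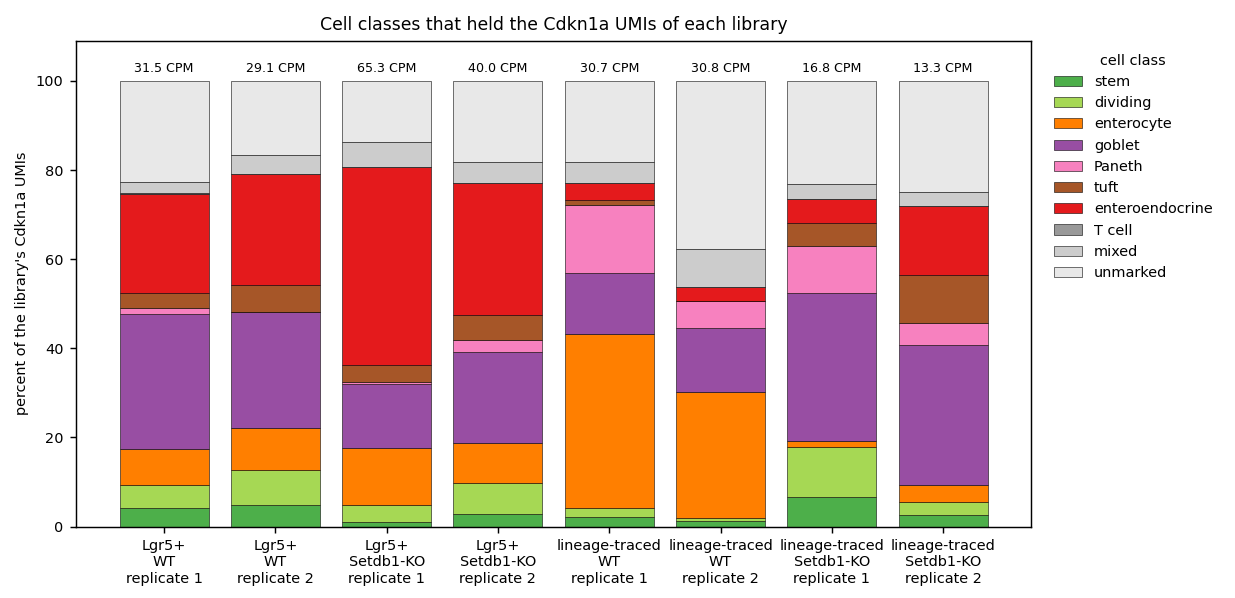
Share of each library's Cdkn1a UMIs, in percent (y axis), held by each cell class (stacked colours) in the 8 libraries (x axis), with the CPM over all kept cells printed above each bar. Enteroendocrine-marked cells hold 22.2% to 44.5% in the Lgr5+ and 3.21% to 15.4% in the lineage-traced libraries.

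Mdm2, the ubiquitin ligase that degrades p53, ranged in class means from 4.83 ± 3.42 CPM in Paneth-marked cells (SD, n = 4, 24 UMIs, too few cells for a fit) to 35.2 ± 13.1 CPM in enteroendocrine-marked cells. In stem-marked cells it stood at 10.7 and 12.5 CPM in WT and at 12.8 and 9.90 CPM in Setdb1-KO. In enteroendocrine-marked cells it stood at 21.6 and 31.7 CPM in WT and at 52.9 and 34.4 CPM in Setdb1-KO, from 11, 22, 57 and 49 UMIs, so these classes did not overlap. The log2 fold change against stem-marked cells was 1.14 (SE 0.18, edgeR adjusted p = 1.19e-06) in enteroendocrine-marked and 0.60 (SE 0.13, edgeR adjusted p = 0.000179) in goblet-marked cells. Empty droplets held Mdm2 at 4.55 to 12.9 CPM. Enterocyte-marked, dividing and tuft-marked cells did not pass the test (0.11, -0.05 and 0.46, with 11.1 ± 1.51, 11 ± 1.55 and 19.0 ± 2.61 CPM, SD, n = 4).

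Ccng1 encodes cyclin G1, which acts with Mdm2 in the same feedback loop. It varied least between classes, from 13.4 ± 5.50 CPM in tuft-marked to 24.5 ± 7.0 CPM in Paneth-marked cells (SD, n = 4), and empty droplets held it at 12.3 to 19.7 CPM, about the level of most classes. Goblet-marked cells, at 22.6 and 20.3 CPM in WT and 24.2 and 17.3 CPM in Setdb1-KO, were higher than stem-marked cells, at 18.1 and 17.9 CPM and 17.3 and 15.0 CPM (log2 fold change 0.43, SE 0.11, edgeR adjusted p = 0.000564). Tuft-marked cells were lower (-0.59, SE 0.22, edgeR adjusted p = 0.0310), a call lost under 5 of the alternatives tried. For enteroendocrine-marked cells the sign depended on the scaling, with -0.25 under TMM and 0.32 with library totals, and neither passed the test.

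Trp53inp1 encodes a nuclear protein that helps p53 turn on arrest and death genes. It was highest in enteroendocrine-marked cells, at 21.6 and 24.5 CPM in WT and at 30.6 and 25.3 CPM in Setdb1-KO, against 5.51 and 5.47 CPM and 2.98 and 1.53 CPM in stem-marked cells. The log2 fold change was 2.31 (SE 0.26, edgeR adjusted p = 1.76e-09). Against stem-marked cells it fell in enterocyte-marked cells (-2.44, SE 0.50, edgeR adjusted p = 7.05e-05), where 1 or 2 UMIs were counted per library, and in dividing cells (-1.46, SE 0.26, edgeR adjusted p = 4.04e-05). Goblet-marked cells were higher by 0.59 (SE 0.23, edgeR adjusted p = 0.0229), a call lost under 4 of the alternatives. Paneth-marked cells, too few for a fit, had 9.22 to 31.3 CPM from 4 to 37 UMIs.

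Bbc3 and Bax belong to the mitochondrial arm of apoptosis, Bbc3 as the BH3-only trigger PUMA and Bax as the pore former. Bbc3 stood at 39.3 and 28.8 CPM in the enteroendocrine-marked cells of WT and at 22.3 and 13.4 CPM in those of Setdb1-KO. In stem-marked cells it had 7.52 and 6.36 CPM in WT and 4.93 and 4.86 CPM in Setdb1-KO, below each enteroendocrine value (log2 fold change 1.51, SE 0.26, edgeR adjusted p = 5.95e-06). Dividing cells had less than stem-marked cells (-1.10, SE 0.22, edgeR adjusted p = 0.000127), with 3.91 and 4.07 CPM in WT and 1.24 and 1.74 CPM in Setdb1-KO. Bax was counted in every class, with 270 ± 29.4 CPM in enteroendocrine-marked, 132 ± 8.01 in stem-marked, 96.1 ± 9.90 in goblet-marked and 43.1 ± 8.70 in Paneth-marked cells (SD, n = 4). It was higher in enteroendocrine-marked (0.48, SE 0.07, edgeR adjusted p = 5.12e-07) and lower in goblet-marked cells (-0.33, SE 0.06, edgeR adjusted p = 4.65e-05) than in stem-marked cells.

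Phlda3, which holds back the survival kinase Akt at the membrane, was lower in 3 of the 5 classes fitted than in stem-marked cells. It stood at 5.01 and 5.38 CPM in the stem-marked cells of WT and at 4.03 and 3.78 CPM in those of Setdb1-KO, and at 0.516, 1.54, 0.469 and 0.619 CPM in goblet-marked cells. In enterocyte-marked cells 0, 0, 1 and 1 UMIs were counted. The log2 fold change against stem-marked cells was -2.33 (SE 0.35, edgeR adjusted p = 4.73e-07) in goblet-marked and -4.34 (SE 0.66, edgeR adjusted p = 6.46e-07) in enterocyte-marked cells, the latter resting on 2 UMIs and so set by the prior count. In enteroendocrine-marked cells it was -1.15 (SE 0.50, edgeR adjusted p = 0.0429), from 0, 2, 3 and 5 UMIs, and that call was lost under 6 of the alternatives. Paneth-marked cells had the highest mean, 6.46 ± 5.11 CPM (SD, n = 4), from 22 UMIs and with libraries between 0 and 12.5 CPM, which overlapped stem-marked cells.

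Eda2r, a receptor of the tumour necrosis factor receptor family, was barely detected. It had 10 and 10 UMIs over all kept cells of Lgr5+ WT and 3 and 11 of Lgr5+ Setdb1-KO, with 12, 2, 5 and 8 in the lineage-traced libraries. No UMI was counted in tuft-marked or enteroendocrine-marked cells of either experiment, and it passed the count filter in none of the within-experiment fits. Across the 7 members tested against stem-marked cells, enteroendocrine-marked cells had 5 higher and 1 lower, against 33.9% and 30.9% of all genes, with a median log2 fold change of 1.14. Goblet-marked cells had 4 higher and 2 lower (33.8% and 31.5% of all genes, median over the members 0.43), and enterocyte-marked cells 1 and 2 (29.1% and 34.9%, median -0.03). Tuft-marked cells had 1 and 1 (22% and 21.3%, median 0.02) and dividing cells 1 and 2 (17.8% and 18.7%, median -0.05). With library totals the members higher and lower were 5 and 0 in enteroendocrine-marked (52.8% and 15.3% of all genes), 3 and 3 in goblet-marked (28.4% and 37.9%), 1 and 3 in enterocyte-marked (23.7% and 43%), 3 and 0 in tuft-marked (31% and 13.2%) and 1 and 2 in dividing cells (19.2% and 17.4%).

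Across lineage-traced cells the classes kept a similar order for Cdkn1a, with far fewer UMIs. Enteroendocrine-marked cells had 314 and 344 CPM in WT (23 and 8 UMIs) and 133 and 187 CPM in the libraries labelled Setdb1-KO (8 and 55 UMIs). Stem-marked cells had 13.1 and 10.8 CPM in WT and 9.46 and 4.87 CPM in those labelled Setdb1-KO. Against stem-marked cells Cdkn1a was higher by a log2 fold change of 4.29 (SE 0.38, edgeR adjusted p = 6.29e-14) in enteroendocrine-marked, 3.08 (SE 0.33, edgeR adjusted p = 2.03e-11) in enterocyte-marked and 1.90 (SE 0.33, edgeR adjusted p = 5.29e-06) in goblet-marked cells. The enterocyte value pooled genotypes that stood apart, with 113 and 81.6 CPM in WT but 12.2 and 15.8 CPM in those labelled Setdb1-KO, and in the WT libraries alone it was 3.37 (edgeR adjusted p = 7.23e-24). The background was 18.2%, 40% and 32.8% of 8918 genes. With library totals in place of TMM the higher and lower genes went from 700 and 922 to 909 and 114 in enteroendocrine-marked, from 2076 and 1491 to 1054 and 2078 in enterocyte-marked and from 1649 and 1280 to 963 and 1343 in goblet-marked cells. Dividing cells, with a background of 9.14%, did not differ past the threshold in any of the 5 members tested (Cdkn1a -0.26, SE 0.44), where 1974 genes had an unadjusted p under 0.05.

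The other members were read in the same classes. Bax had 103 and 104 CPM in stem-marked cells of WT and 85.2 and 129 CPM in those labelled Setdb1-KO, and 11.7, 11.3, 30.7 and 33.9 CPM in Paneth-marked cells. Trp53inp1 had 9.22, 14.5, 21.6 and 9.80 CPM in Paneth-marked cells and 1.17 to 6.12 CPM in enterocyte-marked cells, where the call against stem-marked cells (-1.25, SE 0.49, edgeR adjusted p = 0.0359) was lost under 7 alternatives. Mdm2 had 4.85 to 23.8 CPM in enterocyte-marked and 1.61 to 5.35 CPM in Paneth-marked cells. For Paneth-marked cells, with a background of 19%, the calls of Cdkn1a (2.69), Ccng1 (1.77) and Trp53inp1 (2.59) rested on the TMM scaling. With library totals the median of all genes there went from 0.0131 to -2.05, the higher and lower genes from 1011 and 682 to 84 and 8046, and these values became 0.60, -0.31 and 0.57, with edgeR adjusted p of 0.141, 0.367 and 0.134. Phlda3 had at most 4 UMIs and Bbc3 at most 9 UMIs in any library of these marked classes except dividing cells, where Phlda3 reached 7 UMIs.

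**Figure D3:**
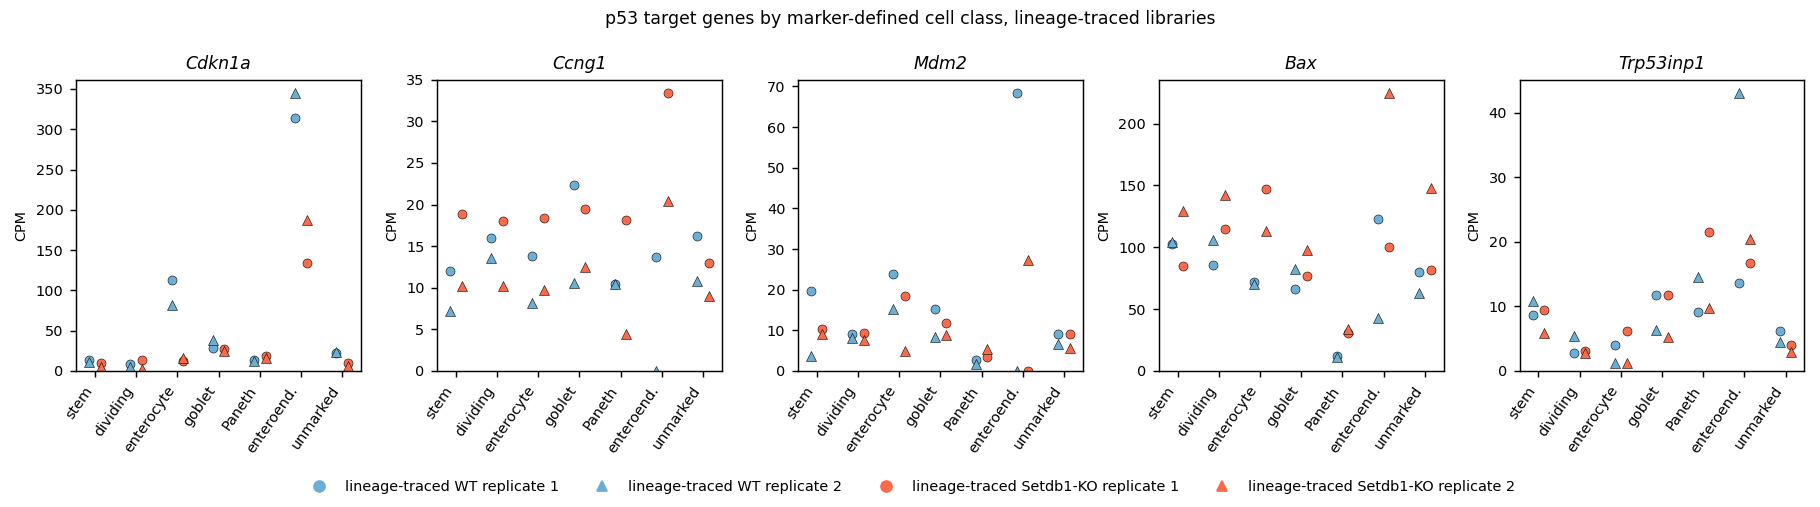
Levels of 5 of the p53 target genes in CPM (y axis, linear) by cell class (x axis) in the 2 lineage-traced WT libraries (blue) and the 2 labelled Setdb1-KO (red). For Cdkn1a the WT points lie above those labelled Setdb1-KO in enterocyte-marked cells, at 113 and 81.6 CPM against 12.2 and 15.8 CPM.

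The comparison of Lgr5+ Setdb1-KO with Lgr5+ WT asks how these genes differed by genotype in the sorted cells, which included mature classes. The paper ascribes the mature cells of this sort to its gating and to incomplete enrichment. Setdb1-KO there names the genotype of the mouse, and whether those cells carried the deletion was not measured here. Over all kept cells Cdkn1a stood at 31.5 and 29.1 CPM in WT and at 65.3 and 40.0 CPM in Setdb1-KO. Both Setdb1-KO libraries were above both WT libraries, and the difference did not pass the threshold (log2 fold change 0.79, SE 0.18, edgeR adjusted p = 0.0893). None of the 7 members tested was called, against 1.34% of 13662 genes called and 2388 with an unadjusted p under 0.05. DESeq2 called 1 member, Cdkn1a (0.79, DESeq2 adjusted p = 0.000160). The value depended on the Setdb1-KO library used. Without the second it was 1.05 (edgeR adjusted p = 0.00147) and without the first, which had the highest share of enteroendocrine-marked cells, 0.47 (edgeR adjusted p = 0.106). In these fits 1 Setdb1-KO library stands against 2 WT libraries, so the spread comes from the WT pair alone and the lone library is assumed to vary like it.

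The share of enteroendocrine-marked cells moved with this result, as did shares of other classes. Enterocyte-marked cells were 3.52% and 5.76% of WT and 12.2% and 6.91% of Setdb1-KO cells, and stem-marked cells 30.4% and 34.8% against 26.9% and 23.0%. Without enteroendocrine-marked cells, Cdkn1a stood at 24.8 and 22.2 CPM in WT and at 37.7 and 28.8 CPM in Setdb1-KO (0.52, edgeR adjusted p = 0.0641). With each of the 7 classes of at least 20 cells per library (Paneth-marked, T cell-marked and mixed barcodes left out) given the same share of UMIs in all 4 libraries, the mean of the 4 libraries' shares, the level was 36.4 ± 4.25 CPM in WT and 43.2 ± 8.38 CPM in Setdb1-KO (SD, n = 2), a log2 difference of 0.25 against 0.78 over the same cells with each library's own shares. Within classes the difference was -0.01 (SE 0.17) in enterocyte-marked, -0.04 (SE 0.15) in goblet-marked, 0.00 (SE 0.37) in stem-marked, 0.21 (SE 0.20) in tuft-marked, 0.37 (SE 0.22) in enteroendocrine-marked, 0.37 (SE 0.20) in unmarked and 0.71 (SE 0.24) in dividing cells, and none passed the test.

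Among the other members, Phlda3 stood at 3.32 and 4.39 CPM in WT and at 1.96 and 2.23 CPM in Setdb1-KO (-0.85, SE 0.24, edgeR adjusted p = 0.133). Bbc3 had 5.87 and 4.87 CPM against 3.88 and 3.86 CPM (-0.45, SE 0.15, edgeR adjusted p = 0.194), and Ccng1 20.6 and 19.1 CPM against 17.5 and 16.1 CPM (-0.23, SE 0.08, edgeR adjusted p = 0.214). For these 3 genes each WT library was above each Setdb1-KO library, yet the differences missed the threshold. Mdm2 (12.1 and 13 against 14.4 and 11.9 CPM), Bax (121 and 139 against 129 and 131 CPM) and Trp53inp1 (3.95 and 4.53 against 3.98 and 3.20 CPM) overlapped between the genotypes.

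By class, no member was called in the Lgr5+ libraries either, although some passed under alternatives. The background was 1.06% of genes in stem-marked, 0.931% in dividing, 0.467% in enterocyte-marked, 0.39% in goblet-marked, 0.0159% in tuft-marked, 0.171% in enteroendocrine-marked and 0.961% in unmarked cells, with 1589, 1455, 1032, 622, 328, 478 and 1529 genes at an unadjusted p under 0.05. The values closest to the threshold lay in dividing cells. Phlda3 there had 4.00 and 7.19 CPM in WT (45 and 76 UMIs) and 1.24 and 1.67 CPM in Setdb1-KO (7 and 25 UMIs), a log2 fold change of -1.85 (SE 0.38, edgeR adjusted p = 0.0621). It passed at -1.85 with library totals (edgeR adjusted p = 0.0306) and at -1.99 with the replicate number as a block (edgeR adjusted p = 0.000627). Summed stem markers in the same dividing cells stood at 4369 and 3611 CPM in WT and 2695 and 2117 CPM in Setdb1-KO, and enterocyte markers at 1090 and 1498 against 2235 and 1819 CPM, and their part in the Phlda3 values was not tested. Bbc3 there was at -1.32 (SE 0.31, edgeR adjusted p = 0.0939) and passed at -1.37 with the block (edgeR adjusted p = 0.0236). In stem-marked cells Trp53inp1 had 5.51 and 5.47 CPM in WT and 2.98 and 1.53 CPM in Setdb1-KO (-1.32, SE 0.32, edgeR adjusted p = 0.0977). In enteroendocrine-marked cells Bbc3 was at -0.94 (SE 0.36, edgeR adjusted p = 0.715) and Mdm2 at 0.65 (SE 0.33, edgeR adjusted p = 0.848).

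**Figure D4:**
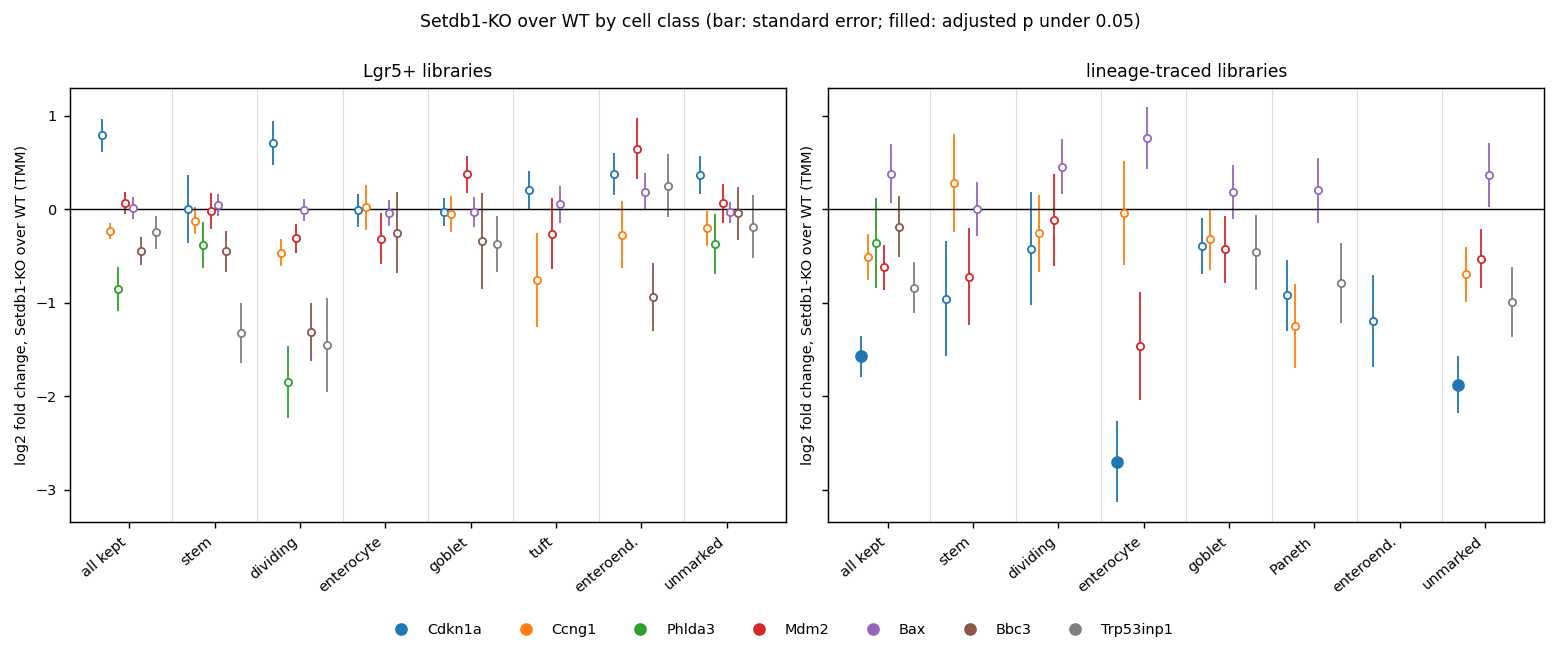
Log2 fold change of Setdb1-KO over WT (y axis) for the members tested, over all kept cells and by cell class (x axis), in the Lgr5+ (left) and lineage-traced libraries (right), with bars of 1 SE and filled points for edgeR adjusted p under 0.05. The filled points are Cdkn1a in the lineage-traced libraries, at -1.58 over all cells, -2.70 in enterocyte-marked and -1.88 in unmarked cells.

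The lineage-traced comparison asks the same of the progeny of Lgr5+ cells. Cdkn1a stood at 30.7 and 30.8 CPM in WT and at 16.8 and 13.3 CPM in the libraries labelled Setdb1-KO. The WT libraries nearly coincided and lay above both others, and Cdkn1a fell by 1.58 on the log2 scale (SE 0.22, edgeR adjusted p = 0.000458). It was the 1 member called of 7 tested, where 8.73% of 12205 genes were called, 1.54% higher and 7.19% lower. With library totals in place of TMM the median of all genes moved from 0.0114 to 0.536 and the called genes from 188 higher and 878 lower to 3316 higher and 491 lower, while Cdkn1a stayed lower at -1.04 (edgeR adjusted p = 0.00634). Without the second WT library, which stood apart, it was -1.52 (edgeR adjusted p = 0.000671), a fit with 1 WT library in which the spread comes from the other group alone. Empty droplets ran the same way at a similar level, with 33.0 and 23.9 CPM of Cdkn1a in WT and 14.6 and 18 CPM in the libraries labelled Setdb1-KO, and their part in the values over all kept cells was not tested. With the same class shares in all 4 libraries, over 7 classes (tuft-marked, T cell-marked and mixed barcodes left out), the log2 difference was -0.98, against -1.10 over the same cells with each library's own shares.

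The other 6 members tested did not pass. Trp53inp1 had 7.68 and 6.31 CPM in WT and 8.11 and 4.04 CPM in the libraries labelled Setdb1-KO (-0.84, SE 0.27, edgeR adjusted p = 0.0816), and its CPM overlapped between the groups. Mdm2 had 10.5 and 6.68 against 9.56 and 7.11 CPM (-0.62, SE 0.24, edgeR adjusted p = 0.154). Bax had 54.2 and 62.0 against 81.8 and 131 CPM (0.38, SE 0.32, edgeR adjusted p = 0.542), and with library totals it was called higher at 0.88 (edgeR adjusted p = 0.0135). Without the first library labelled Setdb1-KO, the log2 fold changes were -1.2 for Trp53inp1, -0.76 for Ccng1, -0.71 for Mdm2 and 0.78 for Bax. These 4 values come from a fit of 1 library against the WT pair, which alone supplies the spread, so no call is drawn from them. With the replicate number as a block, Trp53inp1 (-0.79), Mdm2 (-0.57) and Ccng1 (-0.48) passed. That fit called 2579 genes in all, against 1066 without the block. These folds rest on TMM, since with library totals and no block the values were -0.28, -0.09 and 0.04, with edgeR adjusted p of 0.519, 0.826 and 0.925.

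By class, Cdkn1a was called lower in the libraries labelled Setdb1-KO in enterocyte-marked and in unmarked cells, which held on average 33.5% and 28.0% of the Cdkn1a UMIs of the WT libraries. The classes were not tested against each other. In enterocyte-marked cells it stood at 113 and 81.6 CPM in WT (228 and 70 UMIs in 1353 and 587 cells) and at 12.2 and 15.8 CPM in those labelled Setdb1-KO (2 and 13 UMIs in 88 and 219 cells). The groups were far apart, with a log2 fold change of -2.70 (SE 0.43, edgeR adjusted p = 3.42e-06, background 18% of 5665 genes) and a range of -2.49 to -3.37 over the alternatives. Thinned to 500 UMIs, 7.10% (95% exact binomial interval 5.78% to 8.60%) and 3.75% (2.36% to 5.62%) of WT cells held a Cdkn1a UMI, against 1.14% (0.0288% to 6.17%) and 0.457% (0.0116% to 2.52%). The level in the latter libraries was close to that of their empty droplets, 14.6 and 18 CPM, and the WT level was above that of theirs, 33.0 and 23.9 CPM. Paneth markers moved with this class too, at 100408 and 189521 CPM in the enterocyte-marked cells of WT and 13025 and 16854 CPM in those labelled Setdb1-KO, and their part in the Cdkn1a values was not tested. In unmarked cells Cdkn1a had 21.9 and 23.2 CPM against 9.89 and 6.71 CPM (-1.88, SE 0.30, edgeR adjusted p = 5.50e-06, background 4.7%, 75 higher and 406 lower, or 71 and 185 with library totals), -1.60 without the second WT library (edgeR adjusted p = 0.00284, the spread again from the other group alone). These levels lay below those of each library's empty droplets, and Paneth markers there stood at 167566 and 293736 CPM in WT and 26549 and 28532 CPM in those labelled Setdb1-KO, whose part in this call was not tested. The Paneth cutoff that bounds this class was also higher in WT.

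Enterocyte-marker levels varied between cells, so Cdkn1a was also read in bands of them. Cells with 100 to 200 enterocyte-marker UMIs per 10000 had 46.9 and 31.4 CPM in WT and 19.0 and 9.21 CPM in those labelled Setdb1-KO. Between 200 and 400 the values were 157 and 113 CPM against 0 and 22.7 CPM, and above 400 they were 151 and 175 CPM against 0 and 15.8 CPM. In each band both WT libraries lay above both others. The latter rest on few cells, with 59, 17 and 12 in the first library labelled Setdb1-KO and 93, 70 and 56 in the second, and on at most 7 UMIs each. In the Lgr5+ libraries the bands ran from 36.4 to 99.1 CPM.

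**Figure D5:**
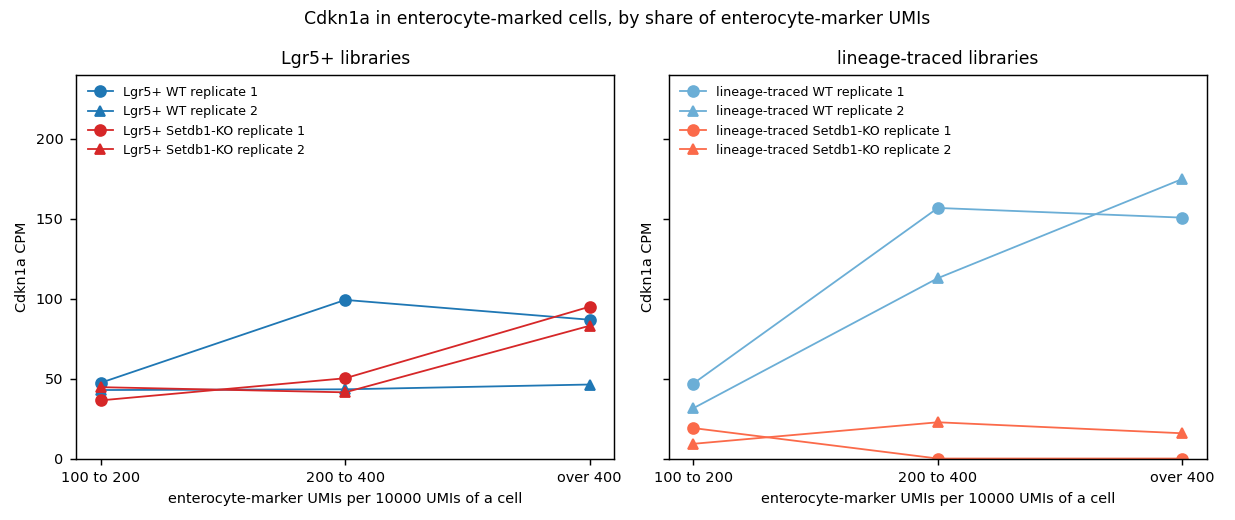
Cdkn1a level in CPM (y axis) of enterocyte-marked cells in 3 bands of enterocyte-marker UMIs per 10000 (x axis), for the 4 Lgr5+ and the 4 lineage-traced libraries. In the lineage-traced libraries the WT points lie between 31.4 and 175 CPM and those labelled Setdb1-KO between 0 and 22.7 CPM.

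The remaining lineage-traced classes did not pass the test for Cdkn1a. The log2 fold change was -1.2 (SE 0.49, edgeR adjusted p = 0.176) in enteroendocrine-marked, -0.92 (SE 0.37, edgeR adjusted p = 0.146) in Paneth-marked, -0.96 (SE 0.61) in stem-marked, -0.43 (SE 0.60) in dividing and -0.39 (SE 0.30) in goblet-marked cells. The background there was 5.54%, 5.06%, 1.28%, 1.19% and 2.43% of genes, with 124, 761, 489, 472 and 765 at an unadjusted p under 0.05. The Paneth-marked folds rest on TMM. With library totals the median of all genes in that fit went from 0.0277 to 1.32, and that of the 4 members tested from -0.86 to 0.44. Goblet-marked cells were close, with 28.8 and 38.1 CPM in WT and 27.9 and 24.4 CPM in those labelled Setdb1-KO. No other member was called in any lineage-traced class. Of the 8 members, 1 was tested in enteroendocrine-marked cells, and 5 in goblet-marked and in unmarked cells. In each other class fitted 4 were tested. In simulated data a log2 change of 1 was recovered in 0% of enteroendocrine, 9.68% of enterocyte and 27.2% of stem cases. These were 10, 93 and 92 changed genes that passed the count filter. Only genes with a mean of at least 10 CPM were changed, so the rates do not cover members below that level. A gene not called is thus not shown to be unchanged. With library totals 1 member was called higher in Paneth-marked cells, where 79% of all genes were. In enterocyte-marked cells Mdm2 was at -1.46 (SE 0.58, edgeR adjusted p = 0.0677) and Bax at 0.76 (SE 0.33, edgeR adjusted p = 0.0978).

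A single fit of all 8 libraries tested whether the genotype acted differently in the 2 experiments. For Cdkn1a the effect in the lineage-traced libraries minus that in the Lgr5+ libraries was -2.35 (SE 0.26, edgeR adjusted p = 0.000150), the 1 member called of 8, against 7.58% of 13781 genes. With library totals the median of all genes moved from 0.0381 to 0.556 and the called genes from 208 higher and 837 lower to 2775 higher and 517 lower. Cdkn1a was -1.84 with library totals and -2.31 without the second lineage-traced WT library, both with edgeR adjusted p of 0.00174 or less. In enterocyte-marked cells it was -2.71 (SE 0.41, edgeR adjusted p = 0.000141, background 6.14%). It did not pass in stem-marked (-0.93, SE 0.68), dividing (-1.2, SE 0.71), goblet-marked (-0.31, SE 0.32) or enteroendocrine-marked cells (-0.98, SE 0.59), with backgrounds of 0.577%, 0.657%, 0.891% and 0.499% and 1011, 905, 851 and 689 genes at an unadjusted p under 0.05. The enterocyte-marked cells of Lgr5+ WT and Setdb1-KO had 65.5 and 43.6 CPM and 58.5 and 49.3 CPM, between the 2 lineage-traced groups. The experiments differ in the reporter, the depth and the sort, which cannot be told apart from the kind of cell.

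Lists of other genes of the pathway were counted beside the members. The list called G1 genes held cyclins (Ccna2 among them), cyclin-dependent kinases, Rb family genes and E2F genes. In Lgr5+ Setdb1-KO against WT over all kept cells, edgeR called 0 of 13 p53 regulators, 0 of 14 other arrest and feedback targets and 0 of 13 death targets. It also called 0 of 17 repair and metabolism targets, 0 of 17 BCL-2 family genes and caspases, 0 of 14 G1 genes and 0 of 15 dissociation stress genes. Of all genes, 1.34% were called. In stem-marked cells, where 1.06% of all genes were called, 1 of the death targets was, Aen, a nuclease induced by p53, at 30.3 and 27.8 CPM in WT and 46.4 and 40.8 CPM in Setdb1-KO (0.63, SE 0.11, edgeR adjusted p = 0.0256), and it is named after its value was seen. With library totals Aen was at 0.58 (SE 0.14, edgeR adjusted p = 0.0743), past the threshold no longer. Trp53, which encodes p53 and is likewise named after its values were seen, stood in stem-marked cells at 110 and 103 CPM in WT and 103 and 102 CPM in Setdb1-KO. In enteroendocrine-marked cells Trp53 had 58.9, 67.6, 52.0 and 53.4 CPM, lower than in stem-marked cells by a log2 fold change of -1.47 (SE 0.16, edgeR adjusted p = 9.90e-10), the opposite order to Cdkn1a.

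Enteroendocrine-marked cells of the Lgr5+ libraries had 9 of 15 tested arrest and feedback targets higher and 3 lower than stem-marked cells, with a median log2 fold change of 1.34, where 33.9% of all genes were higher and 30.9% lower. With library totals, by which 52.8% of all genes were higher and 15.3% lower, these were 10 and 2. Btg2, an antiproliferative gene, had 381, 242, 368 and 245 CPM there against 32.1, 30.3, 29.1 and 25.9 CPM in stem-marked cells (2.80, SE 0.11, edgeR adjusted p = 8.52e-21). Gadd45a, a growth arrest gene, had 104, 109, 184 and 126 CPM against 13.1, 9.46, 15.2 and 11.6 CPM (2.88, SE 0.14, edgeR adjusted p = 2.65e-18). Of 14 G1 genes 3 were higher and 10 lower, median -1.21, with Cdk6 at -2.75 and Ccne1, cyclin E1, at -2.54. Of 13 regulators 3 were higher and 6 lower, with the checkpoint kinases Chek2 at -3.43 and Chek1 at -3.10. Death targets had 2 of 13 higher and 8 lower, repair and metabolism targets 3 and 8 of 17, and BCL-2 family genes and caspases 9 and 4 of 17. With library totals the G1 genes had 3 higher and 7 lower, the regulators 6 and 6, the death targets 5 and 3, the repair and metabolism targets 3 and 5 and the BCL-2 family genes and caspases 11 and 0, so the balance of the death targets turned with the scaling. Dissociation stress genes moved with the same class, 10 of 15 higher and 1 lower (Egr1 2.80). In goblet-marked cells 13 were higher and 1 lower (33.8% and 31.5% of all genes), in tuft-marked cells 2 and 6 (22% and 21.3%) and in enterocyte-marked cells 5 and 7 (29.1% and 34.9%). Their part in the Cdkn1a order was not tested.

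Among the lineage-traced cells, the same lists had calls only in the lower direction over all kept cells, where 7.19% of all genes were lower. These were 1 of 14 arrest and feedback targets, 2 of 13 death targets, 1 of 16 repair and metabolism targets, 2 of 16 BCL-2 family genes and caspases and 3 of 13 dissociation stress genes, with none of 13 regulators and 14 G1 genes. With library totals, by which 27.2% of all genes were higher and 4.02% lower, the calls were mostly in the other direction, 6 regulators, 3 arrest and feedback, 2 death and 4 repair and metabolism targets, 3 BCL-2 family genes and caspases, 3 G1 genes and 2 stress genes being higher and 1, 1, 1 and 1 of the arrest, death, repair and stress lists lower. Pmaip1, the BH3-only gene Noxa, had 6.17 and 5.32 CPM in WT and 2.78 and 2.17 CPM in the libraries labelled Setdb1-KO (-1.77, SE 0.25, edgeR adjusted p = 0.000474). Ccng2, which encodes cyclin G2, had 7.84 and 7.05 against 4.67 and 2.36 CPM (-1.73, SE 0.27, edgeR adjusted p = 0.00110). Fas, the death receptor, had 6.22 and 6.19 against 3.45 and 3.67 CPM (-1.28, SE 0.24, edgeR adjusted p = 0.00449). For these 3 genes the CPM, which are scaled to library totals, were lower in both libraries labelled Setdb1-KO. With library totals the fold of Fas was -0.79 and no longer passed (edgeR adjusted p = 0.0583), while Pmaip1 (-1.26) and Ccng2 (-1.18) did. The stress gene Klf6 was at -1.31 and the detoxifying Ephx1 at -1.38.

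In lineage-traced enterocyte-marked cells, where 5.42% of all genes were higher and 12.6% lower, 2 of 7 arrest and feedback targets, 3 of 7 death targets, 1 of 5 repair and metabolism targets and 4 of 9 dissociation stress genes were lower, and 1 of the 7 death targets was higher. Klf4, a factor of differentiated epithelial cells that is on the stress list, had 216 and 162 CPM in WT against 18.4 and 10.9 CPM in the libraries labelled Setdb1-KO (-3.93, SE 0.45, edgeR adjusted p = 1.34e-09). Ccng2 was at -2.87 (SE 0.63), Jun at -2.90 (SE 0.47) and Btg2 at -2.04 (SE 0.54), from 0 to 11 UMIs in each library labelled Setdb1-KO. Of 6 regulators 1 was higher, of 10 BCL-2 family genes and caspases 2 were lower, and none of 8 G1 genes was called. With library totals the lower counts were equal, no death target and 2 regulators being higher. Stress genes thus moved with Cdkn1a in this class, and their part in its change was not tested. Summed over the list, stress genes stood at 531 and 480 CPM in all kept WT cells and at 728 and 602 CPM in those labelled Setdb1-KO, the opposite order. These CPM are scaled to library totals, by which the median log2 fold change of all genes was 0.536. Under TMM over all kept cells 3 of 13 stress genes were lower and 0 higher, with a median of -0.469.

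Genes whose level was most like that of each member were found over 24 points, 6 classes in the 4 Lgr5+ libraries, by Pearson's r of log2(CPM + 10). The points share libraries, and r is a description. Cdkn1a was most like Fbxo9 (r = 0.973) and Cltc (0.966), and Mdm2 most like Serinc1 (0.95) and Synrg (0.942). Trp53inp1 was most like Nisch (0.985) and Maged2 (0.983), Bax like Pura (0.968) and Slc25a4 (0.965), and Bbc3 like Asb13 (0.958) and Rnf130 (0.956). For Ccng1 the closest were Abracl (0.887) and Gcn1 (0.882), and for Phlda3 Bod1 (0.873) and 2410006H16Rik (0.850). Eda2r had too few UMIs for a comparison. Only genes with a mean of at least 10 CPM could be named. Phlda3, Bbc3, Eda2r and Trp53inp1 (2.33, 8.01, 0.129 and 7.16 CPM in these libraries) therefore could not be. None of the closest genes was one of the other members. In the lineage-traced libraries Cdkn1a was most like Cpeb4 (0.959) and Gch1 (0.949).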

How the data were processed

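GFP+ ileal cells of 8 libraries, 2 per group, were measured with the 10x Genomics 3′ assay. The authors deposited UMI counts per feature for every barcode, not normalized and not filtered for cells. The submitters' processing notes name Cell Ranger 6.1.1, Seurat 5.0.3 and the build mm10. Libraries were grouped by the genotype in the labels. Total counts were 50722926 to 81876035 UMIs per Lgr5+ and 16881518 to 43046925 UMIs per lineage-traced library, and at most 0.45% of the barcodes of the smaller library of any pair were shared.

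The members, lists, cutoffs and tests were chosen with earlier results of these data known. All members are named, and genes of the other lists are named when called by edgeR over all kept cells or in at least 2 class fits of 1 experiment, at most 5 per direction and comparison, of which some are printed. The 2 genes most like each member are also named. Marker cutoffs per 10000 UMIs were 100 (enterocyte), 300 (goblet), 500 (Paneth), 50 (enteroendocrine), 15 (tuft and T cell), 20 (dividing) and 25 (stem), with at least 3 marker UMIs. Where 1.5 times the marker share in a library's empty droplets was higher, it replaced these. For Paneth markers it did so in every library. Their empty-droplet shares were 35.9% and 37.9% in lineage-traced WT and 15.8% and 16.1% in those labelled Setdb1-KO. Paneth-marked, mixed and unmarked barcodes were therefore bounded differently by genotype. Barcodes marked for 2 differentiated classes were set aside, and no other doublet removal was made.

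UMIs were summed per library, and per library and class where every library had at least 20 cells. They were tested with edgeR 4.0.16 (filterByExpr, TMM, quasi-likelihood test, R 4.3.3) with Benjamini-Hochberg adjustment over all genes tested at a threshold of 0.05. Classes were compared with the library as a block. An exact permutation test of 2 against 2 libraries cannot give a p below 0.333. DESeq2 1.42.0 was an alternative, and the fits were tested on simulated data. Levels were computed with pandas 2.3.3, scipy 1.17.1 and numpy 2.4.6 under Python 3.11.15, and figures with matplotlib 3.10.9. Shares have exact Clopper-Pearson 95% intervals, and the limit given with a share of 0 is that of 3 counts. Both cover counting error only.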

Additional observations from a re-analysis of the deposited data

Results flagged for a closer look

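The genotype effect on Cdkn1a differed between the experiments over all kept cells. The log2 fold change of Setdb1-KO over WT in the lineage-traced libraries minus that in the Lgr5+ libraries was -2.35 (SE 0.26, edgeR adjusted p = 0.000150), with Lgr5+ values of 31.5 and 29.1 CPM in WT against 65.3 and 40.0 CPM, and lineage-traced values of 30.7 and 30.8 CPM in WT against 16.8 and 13.3 CPM. The same difference of Cdkn1a in enterocyte-marked cells was -2.71 (SE 0.41, edgeR adjusted p = 0.000141).

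Setdb1 itself, the targeted gene, differed between the experiments by 1.09 (SE 0.27, edgeR adjusted p = 0.0327), lower in Lgr5+ Setdb1-KO and not lower in the lineage-traced libraries labelled Setdb1-KO. 3′ counting does not measure the deleted exon 3.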

How the results depend on the processing

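Of 31 called member values for which alternatives were run, 23 kept their direction and their side of the threshold under every alternative run and 8 did not, 1 of them changing sign (Ccng1 in lineage-traced Paneth-marked cells, -0.31 with library totals). Of 120 values not called, 58 changed sign and 24 passed the threshold under at least 1 alternative. The cause of these changes was not tested. The difference between the experiments within classes, with 1 more call (Cdkn1a in enterocyte-marked cells), was fitted in 1 way only.

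Members called in Lgr5+ Setdb1-KO against WT went from 0 to 1 with DESeq2 and to 0 to 1 on leaving out a library, and by class from 0 to 1 with the marker cutoff doubled or library totals, 4 without the low-count filter, 2 with the replicate block and 0 to 2 on leaving out a library. Among lineage-traced cells they went from 1 to 2 with library totals, 2 without the filter, 4 with the replicate block and 1 to 5 on leaving out a library, by class from 2 to up to 4 on leaving out a library, and against stem-marked cells from 7 to 2 with the marker cutoff doubled, where the Paneth- and enteroendocrine-marked fits, which held 4 of the 7 calls, were not run, so that the fits common to both went from 3 to 2. For the interaction they went from 1 to 2 with library totals and up to 2 on leaving out a library. Genes called in the Lgr5+ comparison went from 183 to 363 with library totals, 35 without the filter, 51 with the replicate block, 488 with DESeq2 and 65 to 527 on leaving out a library. In the lineage-traced comparison they went from 1066 to 3807, 2579 with the block, 652 with DESeq2 and 586 to 2449, and for the interaction from 1045 to 3292, 1568 without the filter, 1729 with the block and 529 to 2118.

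In the fits over all kept cells, the only ones listed here, values that changed sign were Mdm2 (-0.00074) and Bax (-0.0043) in Lgr5+ without enteroendocrine-marked cells. Their ranges were -0.045 to 0.18 and -0.15 to 0.18 on leaving out a library. Among lineage-traced cells they were Ccng1 (0.038), Phlda3 (0.073) and Bbc3 (0.33) with library totals, and Phlda3 (-0.47 to 0.023) and Bax (-0.18 to 0.78) on leaving out a library. For the interaction they were Ccng1 (0.26) and Eda2r (0.31) with library totals, Eda2r with the block (0.14) and DESeq2 (0.0046), and on leaving out a library Phlda3 (-0.62 to 0.94), Bax (-0.16 to 0.84, past the threshold at its highest) and Eda2r (-0.51 to 0.77). Library totals, marked barcodes only, leaving out enteroendocrine-marked cells and the interaction within classes were chosen after seeing the data.

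The labels tie no animal or day to a replicate number, and with 2 pairs per experiment the deviations correlated at 0.0117 (Lgr5+) and 0.309 (lineage-traced), so the block is an alternative only. Lineage-traced Paneth- and enteroendocrine-marked cells with the marker cutoff doubled, and the latter with the UMI minimum doubled, were not run because a library had under 20 cells. Depth limits the lineage-traced classes, where Cdkn1a rested on 2 to 23 UMIs in several libraries of the enterocyte- and enteroendocrine-marked cells.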

Other observations

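Other genes of the pathway also had their own class in the Lgr5+ libraries. Fas, the death receptor, had 22.0 and 20.5 CPM in the enterocyte-marked cells of WT and 14.8 and 16.1 CPM in those of Setdb1-KO, against 0.298 to 1.96 CPM in stem-marked cells (log2 fold change 4.32, SE 0.24, edgeR adjusted p = 8.11e-17). It was also higher in goblet-marked cells, at 5.88 to 8.87 CPM (2.98, SE 0.25, edgeR adjusted p = 2.95e-12). Bcl2, which protects from apoptosis, had the reverse order, with 8.24 to 10.0 CPM in stem-marked cells and 1 to 3 UMIs per library in enterocyte-marked cells (-3.59, SE 0.34, edgeR adjusted p = 3.05e-11). In enterocyte-marked cells 6 of 13 death targets were higher than in stem-marked cells and 5 lower. Of the 14 G1 genes 2 were higher and 11 lower, where 29.1% of all genes were higher and 34.9% lower. With library totals these were 5 and 5, and 2 and 11, against 23.7% and 43% of all genes.

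Gtse1, a p53 target that is expressed in G2, had 7.67 to 11 CPM in dividing cells and 1.08 to 1.94 CPM in stem-marked cells (2.52, SE 0.21, edgeR adjusted p = 8.57e-12). Of the arrest and feedback targets tested in dividing cells, 5 of 15 were higher and 5 lower, against 17.8% and 18.7% of all genes.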
